A study of Homo sapiens with 6 samples.

Results

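Transcripts of 10 genes that write, copy, remove or read DNA methylation and H3K9-marked heterochromatin were followed in human fibroblasts arrested in mitosis with and without activated oncogenic Ras. The genes were chosen by name: the DNA methyltransferases *DNMT1*, *DNMT3A* and *DNMT3B*, their cofactor *UHRF1*, the methylcytosine dioxygenases *TET1*, *TET2* and *TET3*, and the HP1 genes *CBX1* (HP1β), *CBX3* (HP1γ) and *CBX5* (HP1α). These genes and the related lists were chosen with earlier results of these data known. The share of all genes set beside a count is therefore a description and not a test. All 10 were found among the 63129 genes listed, each in a row with 1 value per library. The cells were ERRAS cells, early passage IMR90 human lung fibroblasts that stably carry H-RasV12 fused to the tamoxifen-responsive part of the estrogen receptor, so the control cells carry the fusion too. In 3 libraries the cells were left uninduced (control), and in 3 they had been induced for 4 days with tamoxifen, given as 100 nM in the sample labels, whereas the study's methods state the dose in a mass unit that does not equal it (Ras-induced). Both groups were arrested with 1 μM DME (dimethylenastron), which blocks the kinesin Eg5, and the detached mitotic cells were collected and not the whole culture. Per the study's description the libraries of a group come from independent repeats of the experiment, and p-values measure the spread between these repeats in 1 cell strain.

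DNA methylation is copied after each round of replication. UHRF1 recognizes the hemimethylated CpG left behind the fork and marks histone H3, and DNMT1 is recruited there to methylate the new strand. DNMT3A and DNMT3B set methylation at unmethylated sites, and the TET enzymes oxidize methylcytosine, which leads to its loss. The HP1 proteins bind methylated H3K9, bring its methyltransferases to neighbouring nucleosomes, and leave most of the chromosome arms when Aurora B phosphorylates H3 in mitosis. In fibroblasts driven into senescence by Ras, HP1 proteins gather in the heterochromatic foci of the nucleus.

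Values are FPKM, fragments scaled to the length of the transcript and to the mapped fragments of the library, so that levels can be compared between genes. The deposited values do not give absolute depth, and the steps between low values gave the libraries a depth of 0.845 to 1.17 relative to control library 1. The test was run with limma on log2(FPKM + 1) for the 13993 genes that averaged 1 FPKM or more, and a gene was called at a Benjamini-Hochberg adjusted p of 0.05 or less over all of them. Of these genes 16.7% were called, 11% as higher and 5.67% as lower in Ras-induced cells. The median change of all tested genes was 0.10 on this scale, and it fell to 0.01 after quantile normalization and to 0.0047 after scaling to a common upper quartile. With that scaling 921 genes were called higher and 1101 lower, against 1543 and 793 in the deposited values. *HRAS*, whose reads can come from the construct, averaged 1164 in control and 1586 FPKM in Ras-induced cells (adjusted p = 0.0431 from limma, 0.0925 after upper-quartile scaling and between 0.0598 and 0.156 with a library left out). Of the ERK targets, 7 of 10 genes were called higher and 1 lower, with *DUSP6* going from 2.49 ± 0.729 to 32.7 ± 10.04 FPKM (SD, n = 3). The lower gene was *FOSL1*, with a change of -1.18 (adjusted p = 0.0037 from limma). Of the higher genes *DUSP5* and *SPRY4* lost their calls after upper-quartile scaling (adjusted p = 0.0555 and 0.0629 from limma). With a library left out they were called in 1 and 0 of the 6 fits. The fibroblast markers *VIM*, *FN1* and *COL1A2* were at mean levels of 379 to 2248 FPKM in either group, while the endothelial markers stayed at or under 0.0988 FPKM in every library and *PTPRC* and *CD3E* of leukocytes were at or near 0. Other listed markers were present: *CD68*, a lysosomal protein of macrophages, was at 27.8 and 33.2 FPKM, and the keratin genes *KRT5* and *KRT19* of epithelia were at 11.7 and 2.10 FPKM in control and 11.6 and 2.37 FPKM in Ras-induced cells, with none of the 3 called. *EPCAM*, also epithelial and under the filter on low values, was at 1.24 and 0.288 FPKM, with every Ras-induced library below every control library. The 8 fibroblast markers summed to between 6031 and 7014 FPKM in control and between 4356 and 5908 FPKM in Ras-induced libraries. Of them *COL1A2* and *THY1* were called lower (25%, against 16.7% of all tested genes), in 4 and 6 of the 6 fits with a library left out. After upper-quartile scaling *COL1A1* (adjusted p = 0.0437 from limma) and *COL3A1* (0.0477) were called lower as well. What part these changes have in the other values was not tested.

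In control mitotic cells the 10 transcripts spanned levels from 166 FPKM for *CBX3* to 0.441 FPKM for *TET1*. *CBX3* (166 ± 7.82 FPKM, SD, n = 3) was followed by *CBX1* (101 ± 8.23), *DNMT1* (95.3 ± 9.41), *UHRF1* (72.8 ± 5.36), *CBX5* (15.9 ± 0.732), *DNMT3A* (5.84 ± 1.34), *TET2* (3.52 ± 0.380), *DNMT3B* (3.07 ± 0.390), *TET3* (2.25 ± 0.378) and *TET1* (0.441 ± 0.13). The libraries of neighbours in this order overlapped for *CBX1* and *DNMT1* and for *TET2* and *DNMT3B*, and were apart for the other pairs. The maintenance genes and *CBX1*, *CBX3* and *CBX5* were thus more abundant than every de novo and oxidizing enzyme. In Ras-induced cells the order was the same and no neighbours overlapped.

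**Figure D1:**
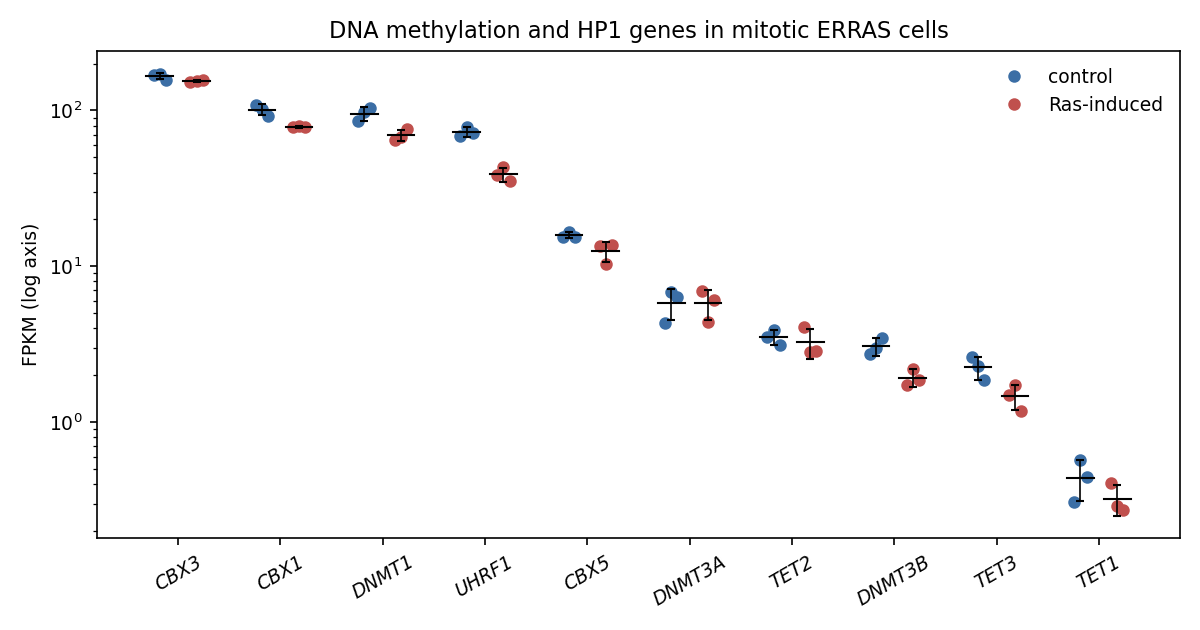
FPKM on a log axis of each gene in the 3 control libraries (blue) and the 3 Ras-induced libraries (red), with the group mean and SD as black bars. *UHRF1* shows the widest gap, from 72.8 to 39.0 FPKM, and *DNMT3A*, *TET2* and *TET1* overlap between groups.

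Of the 10 genes 9 were tested, and 3 were called, *UHRF1*, *DNMT1* and *CBX1*, all lower in Ras-induced cells, against 5.67% of all tested genes called lower. *TET1* was under 1 FPKM and was not tested. The median change of the 9 was -0.35, against 0.10 for all genes, and each of the 9 lay below the median of all genes. In 7 of the 9 the Ras-induced libraries were all below the control libraries, against 12.8% of all tested genes (27.1% were apart with Ras-induced higher, and 39.9% were apart in either direction). Without the low-value filter only *UHRF1* was called, and with any one library left out 1 or 2 of the 9 were. Relative to the median change of all genes, the 9 changes ranged from -0.99 to -0.11 in the deposited values and from -0.99 to -0.11 after quantile normalization.

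**Figure D2:**
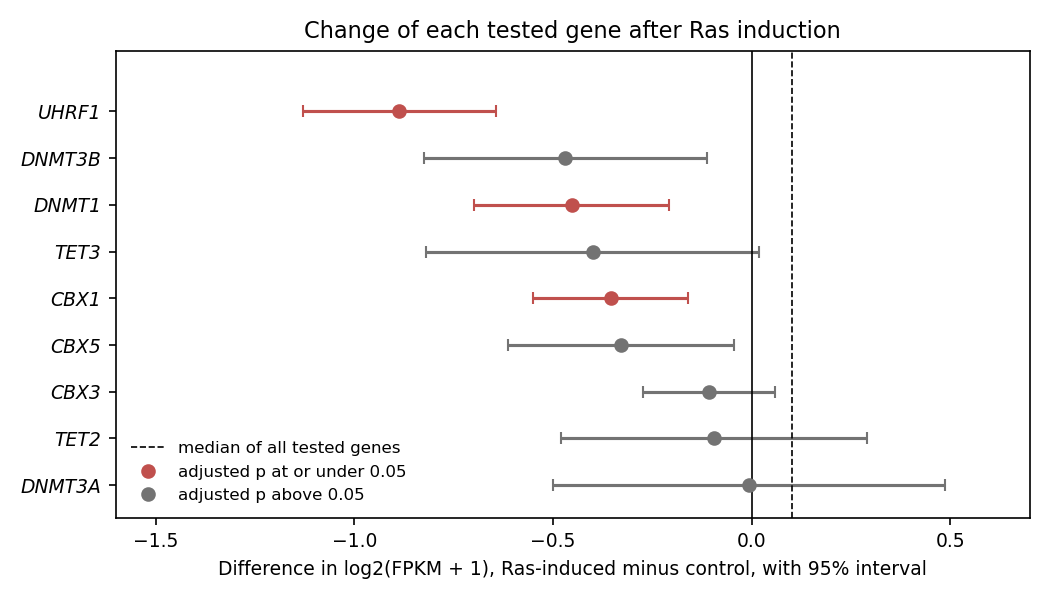
Difference in log2(FPKM + 1) between Ras-induced and control libraries for the 9 tested genes, with 95% intervals from limma (n = 3 per group). *UHRF1* at -0.89, *DNMT1* at -0.45 and *CBX1* at -0.35 (red) passed the threshold, and all 9 points lie left of the dashed line at 0.10, the median of all tested genes.

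*UHRF1*, which brings maintenance methylation to the replication fork, had the largest change of the 10. The file's entry is ENSG00000034063, which the annotation used here lists by the same symbol as ENSG00000276043, and the gene lies on chromosome 19 of GRCh37 from 4903092 to 4962165. It measured 68.3, 78.7 and 71.3 FPKM in control libraries 1 to 3 and 38.4, 43.2 and 35.2 FPKM in Ras-induced libraries 1 to 3. Every Ras-induced library was below every control library, and the mean fell by 46.5%. The change was -0.89 on the log2(FPKM + 1) scale (standard error 0.10, 95% interval -1.13 to -0.64, adjusted p = 0.0042 from limma). The call held in all 13 other fits, with adjusted p between 0.0026 and 0.0287, although the change did not reach an absolute size of 1. In bulk libraries fewer cells with a transcript and less of it per cell cannot be told apart. Its paralog *UHRF2*, which shares the domain layout, was at 37.3 ± 3.07 FPKM in control and 37.8 ± 3.37 FPKM in Ras-induced cells (SD, n = 3; change 0.02, adjusted p = 0.934 from limma), and its sign turned with the scaling (-0.10 after quantile normalization). The ratio of *UHRF1* to *UHRF2* within a library, which a constant factor per library does not alter, went from 1.96 ± 0.234 to 1.04 ± 0.144 (SD, n = 3) without overlap. The exact two-sided permutation p was 0.1, the smallest that 3 against 3 allows, and 0.2 adjusted over the 8 ratios compared.

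*DNMT1*, the maintenance methyltransferase (ENSG00000130816, chromosome 19 of GRCh37 from 10244018 to 10341962), measured 85.1, 97.3 and 103.6 FPKM in control libraries 1 to 3. In Ras-induced libraries 1 to 3 it measured 64.7, 67.7 and 75.6 FPKM. The groups did not overlap and the mean fell by 27.3%. The change was -0.45 (standard error 0.10, 95% interval -0.70 to -0.21, adjusted p = 0.0309 from limma). With a library left out, the change stayed between -0.53 and -0.39. The call held in 1 of these 6 fits, the 1 without control library 1 (adjusted p = 0.0433 from limma). The adjusted p was above 0.05 without control library 2 (0.102) or 3 (0.0664) or without Ras-induced library 1 (0.0938), 2 (0.083) or 3 (0.059). *S1PR2*, a gene on the same strand that overlaps the annotated *DNMT1* span by 9854 bases, was at 0.3 and 0.518 FPKM. The ratio of *UHRF1* to *DNMT1* was 0.767 ± 0.068 in control and 0.566 ± 0.0894 in Ras-induced libraries (SD, n = 3), with no overlap (exact two-sided permutation p = 0.1, adjusted p = 0.2).

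The first 200 bases before the start and 10 bases after it are shown for the called genes, read 5′ to 3′ on the gene's strand from the RefSeq promoter table (GRCh38.p14), with matches to 3 cell cycle promoter motifs in capitals. For *UHRF1*, which has 3 start sites in the table, the first listed is shown (chr19:4909301-4909510, plus strand), and *DNMT1* (chr19:10194944-10195153) and *CBX1* (chr17:48101177-48101386) are on the minus strand.
UHRF1: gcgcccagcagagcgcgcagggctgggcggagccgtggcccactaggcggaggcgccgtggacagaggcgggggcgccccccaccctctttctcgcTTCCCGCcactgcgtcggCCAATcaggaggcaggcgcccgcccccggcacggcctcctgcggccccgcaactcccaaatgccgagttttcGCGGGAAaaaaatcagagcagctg
DNMT1: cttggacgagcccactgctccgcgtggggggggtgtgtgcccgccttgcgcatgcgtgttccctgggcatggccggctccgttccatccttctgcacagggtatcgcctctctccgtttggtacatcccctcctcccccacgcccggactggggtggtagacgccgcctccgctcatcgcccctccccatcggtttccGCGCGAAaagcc
CBX1: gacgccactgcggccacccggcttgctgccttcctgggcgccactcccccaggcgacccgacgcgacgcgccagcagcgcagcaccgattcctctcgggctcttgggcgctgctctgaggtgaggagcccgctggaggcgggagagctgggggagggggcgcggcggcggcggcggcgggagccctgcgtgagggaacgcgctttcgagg
The motifs searched on both strands were the E2F words TTCCCGC and TTGGCGC, with the further spellings TTCGCGC and TTGCCGC, the CHR element as TTTGAA or TTCGAA, and the CCAAT box. None of the words overlapped another in these windows. In the 300-base windows from 250 bases before to 50 after each start, the *UHRF1* window shown held 2 E2F words, first bases at -104 and -14, and a CCAAT box at -86. *DNMT1* held 1 E2F word, on the other strand across its start at -2, and *CBX1* held none of the 3 motifs. All 10 genes matched, with 23 windows in all. An E2F word was found in 5 of the 23, in *UHRF1* (2 windows), *DNMT1*, *TET3* and *CBX3*, which is 21.7% against 13.0% of all 35116 windows in the table. CHR words were in 2 of the 23 windows (16.4% of all) and CCAAT in 9 (34.6% of all). These matches describe letters, and no binding was measured.

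The de novo methyltransferases were far less abundant and did not pass the test. *DNMT3A* (ENSG00000119772, chromosome 2 of GRCh37 from 25450724 to 25565459) measured 4.32, 6.86 and 6.33 FPKM in control libraries 1 to 3 and 6.90, 4.39 and 6.11 FPKM in Ras-induced libraries 1 to 3. The groups overlapped throughout, with a change of -0.01 (95% interval -0.50 to 0.49, adjusted p = 0.987 from limma). *DNMT3B* (ENSG00000088305, chromosome 20 of GRCh37 from 31350191 to 31397165) measured 2.72, 2.99 and 3.49 FPKM in control and 1.74, 2.21 and 1.86 FPKM in Ras-induced libraries 1 to 3. These groups were apart, the means differed by -36.9%, and the change was -0.47 (standard error 0.15, 95% interval -0.83 to -0.11), yet the adjusted p was 0.0771 from limma. Fitted without a mean-variance trend, the adjusted p of *DNMT3B* was 0.0444. *DNMT3L*, the catalytically inactive family member of germ cells, was listed at 0 in all 6 libraries. Of the summed FPKM of the 3 methyltransferases *DNMT1* made up 91.5% ± 0.79 in control and 89.9% ± 1.52 in Ras-induced cells (SD, n = 3). The ratios of *DNMT1* and of *DNMT3B* to *DNMT3A* overlapped between groups. With 1 added to each FPKM, the differences in log2 ratio were -0.45 and -0.46 (both exact two-sided permutation p = 0.2 and adjusted p = 0.267). With 0.1 added they were -0.45 and -0.63, so the size of the second depends on the value added.

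None of the TET genes passed the test. *TET2* (ENSG00000168769, chromosome 4 of GRCh37 from 106067032 to 106200973), the most abundant of the 3, measured 3.52, 3.90 and 3.14 FPKM in control and 4.09, 2.82 and 2.88 FPKM in Ras-induced libraries 1 to 3. Its highest and lowest values were both in the Ras-induced group, and the change was -0.09 (95% interval -0.48 to 0.29, adjusted p = 0.719 from limma). *TET3* (ENSG00000187605, chromosome 2 of GRCh37 from 74212037 to 74335303) measured 2.61, 2.28 and 1.86 FPKM in control and 1.49, 1.72 and 1.18 FPKM in Ras-induced libraries 1 to 3. The groups were apart, and the change was -0.40 (standard error 0.18, 95% interval -0.82 to 0.02, adjusted p = 0.165 from limma). ENSG00000235499, a lncRNA on the same strand at the start of *TET3* was at 1.54 and 0.997 FPKM, and reads shared between the 2 entries could be assigned to either. *TET1* (ENSG00000138336, chromosome 10 of GRCh37 from 70320094 to 70454244) measured 0.309, 0.569 and 0.444 FPKM in control and 0.406, 0.290 and 0.275 FPKM in Ras-induced libraries 1 to 3. No change was detected: with no filter its difference was -0.12 (standard error 0.09, adjusted p = 0.565 from limma). *COX20P1*, a processed pseudogene on the same strand inside *TET1*, was at 5.07 and 5.82 FPKM. The ratio of *TET2* to *TET3* went from 1.58 ± 0.204 to 2.28 ± 0.569 (SD, n = 3) with overlap (exact two-sided permutation p = 0.3).

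Among the HP1 genes *CBX1* fell, and *CBX3* had a higher share of the summed transcripts in Ras-induced than in control libraries. *CBX1* (ENSG00000108468, chromosome 17 of GRCh37 from 46147414 to 46178840) measured 108.5, 102.9 and 92.3 FPKM in control libraries 1 to 3 and 78.2, 80.1 and 78.1 FPKM in Ras-induced libraries 1 to 3. The Ras-induced libraries lay close together and all below the controls, and the mean fell by 22.2%. Its change was -0.35 (standard error 0.08, 95% interval -0.55 to -0.16, adjusted p = 0.032 from limma). The adjusted p was above 0.05 without control library 1 (0.0845) or 2 (0.096) or without Ras-induced library 1 (0.0837), 2 (0.0661) or 3 (0.1003), and also without the mean-variance trend (0.0559), while the change ranged from -0.42 to -0.30 with a library left out. *CBX5* (ENSG00000094916, chromosome 12 of GRCh37 from 54624726 to 54673917) measured 15.4, 16.7 and 15.5 FPKM in control and 13.4, 10.4 and 13.6 FPKM in Ras-induced libraries 1 to 3. Ras-induced library 2 was the lowest, the groups did not overlap, and the change of -0.33 (standard error 0.12, 95% interval -0.61 to -0.04) had an adjusted p of 0.108 from limma, or 0.0431 after quantile normalization.

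*CBX3* (ENSG00000122565, chromosome 7 of GRCh37 from 26240782 to 26253227) measured 169.9, 172.0 and 157.5 FPKM in control and 151.9, 153.8 and 157.5 FPKM in Ras-induced libraries 1 to 3. The groups barely parted, with control library 3 at 157.538 and Ras-induced library 3 at 157.452 FPKM, and the change was -0.11 (95% interval -0.27 to 0.06, adjusted p = 0.325 from limma). Together the 3 HP1 transcripts summed to 284 ± 15.9 FPKM in control and 246 ± 3.08 FPKM in Ras-induced cells (SD, n = 3). *CBX3* made up 57.8%, 59.0% and 59.4% of that sum in the control libraries and 62.4%, 63.0% and 63.2% in the Ras-induced libraries, without overlap. The ratio of *CBX1* to *CBX3* went from 0.608 ± 0.0274 to 0.511 ± 0.013 (SD, n = 3), and that of *CBX5* to *CBX3* from 0.0953 ± 0.00415 to 0.0809 ± 0.0114, both apart between groups (exact two-sided permutation p = 0.1, the smallest possible, adjusted p = 0.2). Processed copies of the HP1 genes could take or lend reads. Of 16 listed pseudogenes of *CBX1*, *CBX3* and *CBX5*, only *CBX3P9* averaged over 1 FPKM (1.48 and 1.51 FPKM), and the others were at or under 0.432 FPKM in every library.

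**Figure D3:**
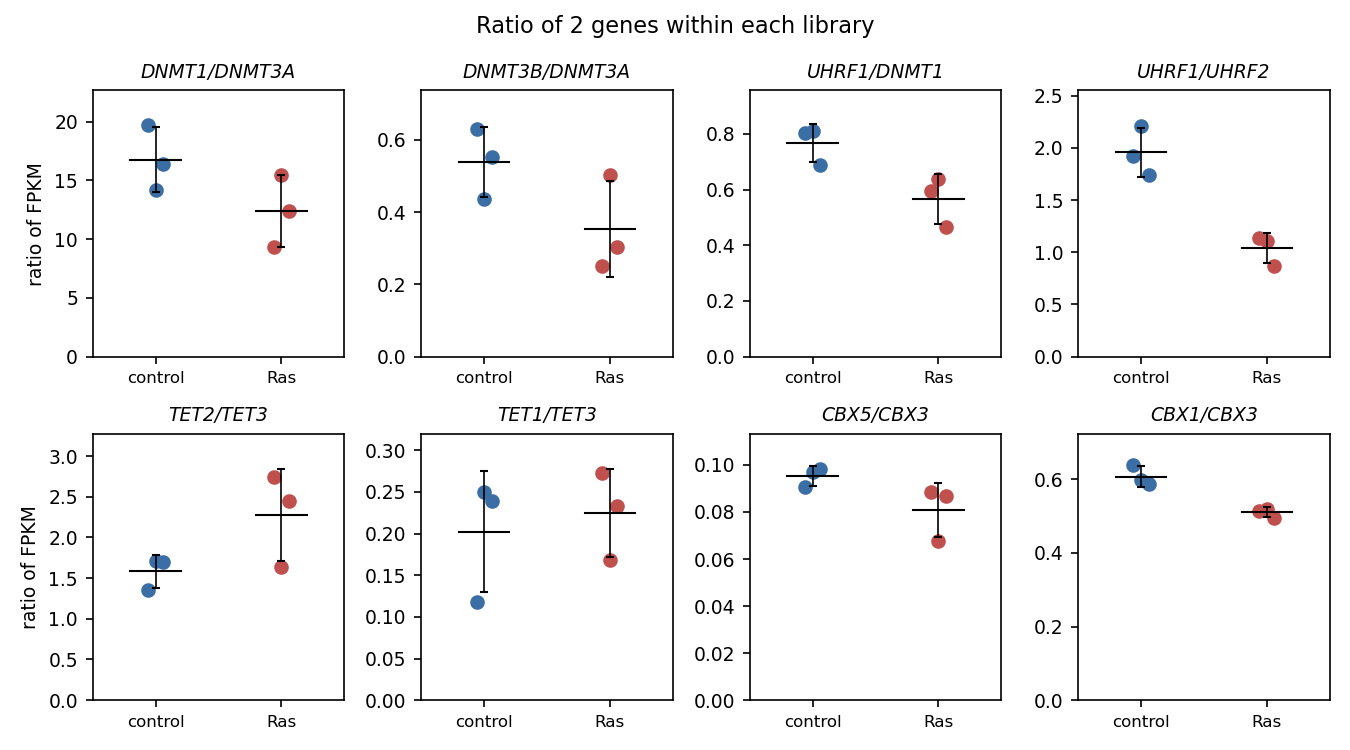
Ratio of the FPKM of 2 genes within each library (dots; control blue, Ras-induced red), with the mean and SD over 3 libraries in black and every axis starting at 0. The groups are apart for *UHRF1*/*DNMT1*, *UHRF1*/*UHRF2*, *CBX5*/*CBX3* and *CBX1*/*CBX3*, and overlap for the other 4 ratios.

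By the outer ends of the annotated GENCODE spans, each HP1 gene starts beside a gene read in the other direction. *CBX3* and *HNRNPA2B1*, which encodes an RNA-binding protein of splicing, overlap at their starts, which are 367 bases apart, and *CBX5* and *HNRNPA1* start 60 bases apart. The starts of *CBX1* and *SNX11*, a sorting nexin gene, are 1879 bases apart. The RefSeq starts used for the promoters lie farther apart for *CBX3* and *HNRNPA2B1* and for *CBX1* and *SNX11*, so these distances depend on the annotation. *HNRNPA2B1* was at 678 ± 2.45 and 637 ± 26.7 FPKM (SD, n = 3; adjusted p = 0.397 from limma), and *HNRNPA1* was at 881 ± 23.7 and 842 ± 34.1 FPKM (adjusted p = 0.552). *SNX11* was at 7.64 ± 0.363 and 8.85 ± 0.206 FPKM (SD, n = 3; adjusted p = 0.184 from limma), so none of the 3 neighbours was called. The libraries do not record strand, so reads in the overlap of *CBX3* and *HNRNPA2B1* cannot be told apart.

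Readers, cofactors and repair enzymes of DNA methylation were taken as a list of 21 genes, of which 19 were tested and 5 were called, 3 lower and 2 higher (26.3%, against 16.7% of all tested genes), with a median change of 0.13 against 0.10 for all genes. The 3 lower genes were the remodeller *HELLS* and its activators *CDCA7* and *CDCA7L*, of which *HELLS* and *CDCA7* are needed for methylation of heterochromatic repeats. *CDCA7* had the largest change: 12.0, 17.4 and 13.7 FPKM in control libraries 1 to 3 against 2.27, 3.08 and 2.08 FPKM in Ras-induced libraries 1 to 3 (change -2.14, standard error 0.17, adjusted p = 0.00197 from limma). Its call held under every alternative run, the requirement of an absolute change of 1 included. *HELLS* fell from 9.78 ± 1.32 to 5.15 ± 0.903 FPKM (change -0.81, adjusted p = 0.0176) and *CDCA7L* from 10.1 ± 2.00 to 4.24 ± 0.459 FPKM (change -1.07, adjusted p = 0.00921; limma, SD, n = 3). Of the higher genes *SMUG1*, a uracil DNA glycosylase, had a change of 0.55 (adjusted p = 0.0184 from limma). With any one library left out, 1 to 4 genes of the list were called, the fewest without control library 2. The call of *CDCA7L* held in 5 of these 6 fits (adjusted p up to 0.055), that of *HELLS* in 2 (up to 0.0842) and that of *SMUG1* in 1 (up to 0.0739).

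The writers and erasers of H3K9 and H4K20 methylation were a list of 21 genes. Of these 19 were tested and 1 was called, against 16.7% of all tested genes: *ATF7IP*, the partner of the H3K9 methyltransferase SETDB1, which fell from 20.3 ± 0.726 to 15.1 ± 1.87 FPKM (SD, n = 3; change -0.41, adjusted p = 0.0448 from limma). This call was lost with any one library left out (adjusted p up to 0.137). The median change of the list was 0.04. *SUV39H1*, which methylates H3K9 in pericentric heterochromatin, was not called and measured 12.4 ± 0.466 and 13.0 ± 0.452 FPKM.

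Partners of HP1 were a list of 18 genes, 17 of them tested, with 3 called lower and 1 higher (23.5%, against 16.7% of all tested genes) and a median change of -0.13. *LMNB1*, encoding lamin B1, fell from 189 ± 19.3 to 93.7 ± 10.5 FPKM (change -1.005, adjusted p = 0.0042 from limma), *CHAF1B*, a subunit of the CAF-1 histone chaperone, from 7.01 ± 1.15 to 3.34 ± 0.777 FPKM (change -0.89, adjusted p = 0.0204), and *LBR*, the lamin B receptor, from 66.2 ± 11.7 to 38.0 ± 2.12 FPKM (change -0.77, adjusted p = 0.0129; SD, n = 3). *MPHOSPH8*, an H3K9me reader of the HUSH silencing complex, rose by 0.35 (adjusted p = 0.0263 from limma), a call lost after quantile normalization (0.0688) or upper-quartile scaling (0.0685). With a library left out *LMNB1* was called in 6 of 6 fits, *LBR* in 2 (adjusted p up to 0.0582), *CHAF1B* in 2 (up to 0.0851) and *MPHOSPH8* in 1 (up to 0.0956). Between 1 and 4 of these genes were called in those fits, the fewest without control library 1 or without Ras-induced library 1 or 3.

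The enzymes that make the methyl donor and the 2-oxoglutarate used by the TET enzymes were 20 genes, 19 tested, with 3 called lower and 2 higher (26.3%, against 16.7% of all tested genes) and a median change of -0.04. *TYMS*, thymidylate synthase, fell from 88.4 ± 3.73 to 27.6 ± 6.64 FPKM (change -1.67, adjusted p = 0.0028 from limma). Mitochondrial *IDH2* fell from 51.9 ± 6.27 to 28.6 ± 3.66 FPKM (change -0.84, adjusted p = 0.0099 from limma), whereas cytosolic *IDH1* rose from 24.8 ± 5.25 to 49.1 ± 11.1 FPKM (change 0.95, adjusted p = 0.0273) and *IDH3A* by 0.43 (adjusted p = 0.0205; SD, n = 3). With a library left out the *IDH2* call held in 5 of 6 fits, that of *IDH1* in 2 (adjusted p up to 0.106) and that of *IDH3A* in 1 (up to 0.0618), and *IDH1* had an adjusted p of 0.0509 after quantile normalization. Of *MAT2A*, *MAT2B* and *AHCY*, which make S-adenosylmethionine and clear its product, none was called. Without control library 2 the list had 2 calls, and 3 to 5 without any other library.

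Genes expressed in S phase, the phase in which *DNMT1* and *UHRF1* act, were mostly lower as well. Of 20 such genes 19 were tested and 13 were called, 12 lower and 1 higher (68.4%, against 16.7% of all tested genes), with a median change of -0.61. *MCM3*, *MCM6* and *TK1* had changes of -1.30, -1.26 and -1.26 (adjusted p = 0.0029, 0.0038 and 0.0057 from limma), and *PCNA*, the sliding clamp to which DNMT1 binds, had -0.54 (adjusted p = 0.013, up to 0.0574 with a library left out). The 1 higher gene was *FEN1*, at 37.8 ± 0.663 and 46.6 ± 1.40 FPKM (SD, n = 3; change 0.29, adjusted p = 0.033 from limma), and it was no longer called after quantile normalization (0.111) or in 5 of the 6 fits with a library left out (up to 0.0803). With a library left out 6 to 12 were called, 6 of them without control library 2 or without Ras-induced library 1 or 3. Among 8 mitotic genes 2 were called (25%, against 16.7% of all tested genes). Both were lower, *PLK1* and *TOP2A* (changes of -0.27 and -0.63, adjusted p = 0.0475 and 0.0339 from limma). Each call held in 1 of the 6 fits with a library left out, with adjusted p up to 0.129 and 0.118, and that of *PLK1* was also lost with a replicate block (0.0643) or a pseudocount of 0.1 (0.0516). In 5 of the 8 the Ras-induced libraries were all below the control libraries, against 12.8% of all tested genes. *CCNB1* was at 550 ± 34.6 and 482 ± 38.8 FPKM, *CDK1* at 3.68 and 2.73 FPKM, and *UBE2C* at 13.5 and 13.8 FPKM. The part that the S-phase genes have in the *UHRF1* and *DNMT1* values was not tested.

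Germline genes whose promoters are methylated in somatic cells were a list of 17, of which only *CTAG2* and *SYCP3* reached a mean of 1 FPKM. Of the other 15, 8 were listed at 0 in all 6 libraries. Neither tested gene was called by limma (16.7% of all tested genes were), with 1 at an unadjusted p of 0.05 or less. *CTAG2*, a cancer-testis antigen gene with near-identical copies that can share its reads, was at 15.3, 14.1 and 10.4 FPKM in control and 18.9, 24.4 and 18.2 FPKM in Ras-induced libraries 1 to 3 (change 0.60, adjusted p = 0.0598 from limma, range 0.0422 to 0.149 over the alternatives). *SYCP3*, of the synaptonemal complex, was at 1.37 ± 0.269 and 0.747 ± 0.251 FPKM (adjusted p = 0.188).

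The tested genes whose log2(FPKM + 1) over the 6 libraries was most like that of *UHRF1* were *CDCA7*, *PCSK7*, *PTRF*, *CCDC80* and *NRK*, with Pearson correlations from 0.995 to 0.997. For *DNMT1* they were *RBBP7*, *RP11-309L24.6*, *ATP2B4*, *PARP1* and *CDCA7L*, with correlations from 0.987 to 0.994. All of these values share the step between the 2 groups of libraries and are given as a description. After each group's mean was removed, *UHRF1* and *DNMT1* had a correlation of -0.10 with each other, against 0.87 over all 6 libraries.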

How the data were processed

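Poly(A) RNA of mitotically arrested IMR90 ERRAS cells was sequenced on a NextSeq500 from unstranded libraries (TruSeq RNA v2). Per the labels and the study's methods, the authors trimmed reads with Trim Galore 0.3.0, aligned the pairs to hg19 with TopHat2 and Ensembl build 73 junctions, and deposited FPKM values per gene and library from Cufflinks. Column names show the group and a running number within it, not which labelled sample they belong to, and each served as a replicate of its group. A further 18 columns without a name were not used, and 120 rows that had more than 6 values were skipped. The deposited cuffdiff comparison, which holds group values, fold changes and p-values, was not used.

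Where a symbol was repeated, the row of highest mean was taken. The main model was limma 3.58.1 (R 4.3.3), with lmFit and a trended eBayes on log2(FPKM + 1), for genes averaging 1 FPKM or more. Tests were two-sided and had no replicate block. FPKM values do not give the counts behind them, so no counting interval is given. Ratios within libraries are printed as ratios of FPKM, and their exact permutation test used differences in log2(FPKM + 1). Alternatives were a pseudocount of 0.1, no filter or a mean of 5 FPKM, quantile and upper-quartile scaling, no trend, a replicate block, each library left out and an absolute change of at least 1. The genes named were the 10, their paralogs, pseudogenes and neighbours, the 3 largest called rises and falls of each list, the 5 most alike to *UHRF1* and *DNMT1*, *HRAS*, and markers. Some genes that this rule names are not reported here. The members and lists were chosen with earlier results of these data known. Coordinates are from GENCODE 44 lifted to GRCh37, the build of hg19, matched by symbol; promoters are from RefSeq on GRCh38.p14. Figures were drawn with Python 3.11.15 and matplotlib 3.10.9.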

Additional observations from a re-analysis of the deposited data

How the results depend on the processing

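Among the 10 genes 3 or 4 were called under 6 of the alternatives, 1 with no filter on low values, 0 where an absolute change of at least 1 was required, and 1 to 2 with a library left out. *UHRF1* kept its call in all 13 other fits. With no filter, over 29362 genes tested, *DNMT1* (-0.45, adjusted p = 0.0662 from limma) and *CBX1* (-0.35, 0.0541) lost theirs. Without a mean-variance trend *CBX1* (-0.35) lost its call and *DNMT3B* (-0.47) gained one, and *CBX5* (-0.43) gained one after quantile normalization. The cause was not tested. With a library left out the change ranged from -0.53 to -0.39 for *DNMT1* and from -0.42 to -0.30 for *CBX1*. That of *DNMT3A* ranged from -0.18 to 0.15, with the sign turned without control library 2 (0.10), control library 3 (0.05) or Ras-induced library 2 (0.15).

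Requiring an absolute change of 1 left 2 calls among the DNA methylation readers, cofactors and repair genes, 0 in the H3K9 and H4K20 list, 1 each among the HP1 partners and the methyl-donor enzymes, 4 of the S-phase genes and 548 of all genes. The H3K9 and H4K20 list had 0 calls with no filter, with no trend or with the replicate block, and 2 at a mean of 5 FPKM or more; the germline list had 1 at that mean and 1 with the block. All genes gave 1518 calls with no filter. With a library left out, the calls ranged from 1 to 4 for the readers, 0 to 1 for the H3K9 and H4K20 list, 1 to 4 for the HP1 partners, 2 to 5 for the methyl-donor enzymes, 6 to 12 for the S-phase genes and 860 to 1872 for all genes. Quantile normalization gave 2153 calls over all genes, 1044 higher and 1109 lower, and upper-quartile scaling 2022, 921 higher and 1101 lower, against 1543 and 793 in the deposited values.

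The deviations of libraries of the same number correlated at -0.003, 0.043 and 0.048, against -0.068 to 0.031 for libraries of different numbers. These small values do not settle whether the numbers pair the libraries, and the main model did not use them. With the replicate block 2310 genes were called, 1940 of them also without it, and 3 of the 10: *UHRF1* (adjusted p = 0.00765 from limma), *DNMT1* (0.0217) and *CBX1* (0.0452).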
